A study of Mus musculus with 3 samples.

Results

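The 10 genes described here belong to the unfolded protein response or to the folding machinery it serves, and were followed across the cell types of the mouse small intestine. They were Xbp1, Ern2, Creb3l1, Creb3l4, Hspa5, Hsp90b1, Fkbp11, Pdia4, Pdia5 and Selm. They were taken by name, with earlier results of these data known, and all 10 were among the 13891 genes of the table. The table held 12653 cells from 3 libraries of the small intestine of male ICR mice that were 3 weeks old when treatment began. AOS 0 came from mice that received water by gavage and no busulfan. B + A 0 came from mice given a single injection of busulfan, a DNA-alkylating drug, at 40 mg/kg, followed by water. B + A 10 came from mice given the same injection followed by alginate oligosaccharides (AOS) at 10 mg/kg each day for 2 weeks. Each library pooled the epithelial cells of 6 mice, so the spread between animals cannot be seen, there is 1 library per group and no p-value is given. The source names of both busulfan libraries carried other group names than their titles, and the groups follow the titles and the treatment labels. The libraries held 4106 (AOS 0), 3195 (B + A 0) and 5352 (B + A 10) cells with a median of 7371, 6407 and 3505 unique molecular identifiers (UMIs) per cell, and between 17 and 34 cell barcodes were shared by any pair of libraries.

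Proteins bound for secretion fold in the endoplasmic reticulum (ER), and cells that secrete heavily, such as goblet cells with their mucins and Paneth cells with their antimicrobial peptides, need a large folding capacity. When unfolded protein builds up, sensors in the ER membrane (IRE1, ATF6 and PERK) raise the output of chaperones and folding enzymes, and IRE1 does so by splicing the mRNA of the transcription factor XBP1. Ern2 encodes IRE1 beta, a form of the sensor found in mucosal epithelia, and Creb3l1 and Creb3l4 encode membrane-bound transcription factors related to ATF6.

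The promoters of the chaperone genes carry the best known binding sequences of this pathway, and the 3 member promoters that held one are shown for that reason. Each is a RefSeq promoter of mouse assembly GRCm38.p6, running 5′ to 3′ from 250 bases before to 50 bases after the annotated start, with matches in capitals. The Hspa5 promoter (chr2:34771840-34772139, + strand) held the UPRE core TGACGTG at -157 and the ER stress response element (ERSE), CCAAT and CCACG with 9 bases between them, at -65 from the start. The Hsp90b1 promoter (chr10:86705395-86705694, - strand) held 2 ERSE matches, at -212 on the gene's strand and at -107 on the other. In Fkbp11 the UPRE core lay on the opposite strand at the start of its second annotated promoter (chr15:98727578-98727877, - strand).
Hspa5: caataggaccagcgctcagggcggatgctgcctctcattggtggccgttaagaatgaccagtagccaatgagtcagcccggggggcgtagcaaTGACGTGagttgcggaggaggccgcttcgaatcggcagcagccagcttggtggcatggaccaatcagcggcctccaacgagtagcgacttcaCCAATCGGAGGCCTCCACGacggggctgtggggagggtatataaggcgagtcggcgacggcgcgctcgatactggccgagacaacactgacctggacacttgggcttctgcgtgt
Hsp90b1: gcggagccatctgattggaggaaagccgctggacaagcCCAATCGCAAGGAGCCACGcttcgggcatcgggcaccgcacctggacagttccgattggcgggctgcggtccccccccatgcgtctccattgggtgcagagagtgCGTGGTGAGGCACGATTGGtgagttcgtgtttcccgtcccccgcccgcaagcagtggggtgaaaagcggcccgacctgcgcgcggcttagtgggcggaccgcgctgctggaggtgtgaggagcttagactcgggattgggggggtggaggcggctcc
Fkbp11: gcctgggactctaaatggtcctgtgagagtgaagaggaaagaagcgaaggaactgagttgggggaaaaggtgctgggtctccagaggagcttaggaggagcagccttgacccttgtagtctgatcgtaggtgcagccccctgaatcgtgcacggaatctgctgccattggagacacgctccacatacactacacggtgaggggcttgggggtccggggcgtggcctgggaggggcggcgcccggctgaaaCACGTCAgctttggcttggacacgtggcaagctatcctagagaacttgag
Both strands of the promoters of 8 of the 10 genes were searched, those of Ern2 and Creb3l1 being not analysed here. Of 32851 promoters of the same length in the same table, 39 (0.119%) held the ERSE and 661 (2.01%) the UPRE core, and the second element ERSE-II (ATTGG and CCACG with 1 base between them), held by 12 promoters in all, was in no member promoter searched. The ERSE ends in CCACG, which 32.8% of all promoters hold on its own. A match describes the letters of these windows and is no evidence of binding.

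Cells were clustered without the 10 genes or 87 other genes of the pathway, and clusters were named by marker genes, so that each name below stands for cells that are like that type by its markers. Crypt goblet cells (678 cells) were led by Reg4 and Ccl9, and villus goblet cells (771 cells) by goblet genes with Ido1 and Krt20. An intermediate class of 645 goblet cells, called Retnlb goblet cells, was named by Retnlb and Mptx1. Retnlb did not set this class apart, at 137 to 161 UMIs per 10000 against 127 to 174 in crypt goblet cells. Mptx1 was higher in this class in each library, at 73.9 to 111 against 42.2 to 81.7. Dividing secretory cells (363 cells) joined Reg4, Ccl9 and Atoh1 to genes of the cell cycle, and 25.6% of them were among the 597 cells with the top 5% of doublet scores. Paneth cells (379 cells, a median of 19928 UMIs) were led by Lyz1 and alpha-defensins. The other classes were enteroendocrine (151 cells), stem (912), dividing crypt (2431), enterocyte (4447), tuft (28) and T cells (316), and 1532 cells (12.1%) stayed unnamed. The summed Reg4 and Ccl9 level was 28.3 to 46.7 UMIs per 10000 in crypt goblet cells and 2.05 to 4.74 in villus goblet cells, and the 14 Paneth marker genes, which summed to between 5857 and 6306 in Paneth cells, were also present at 490 to 731 in crypt goblet cells.

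Levels are summed UMIs of a gene per 10000 UMIs of a class in a library, and where 3 values follow each other they stand for AOS 0, then B + A 0, then B + A 10. Intervals are exact Poisson or binomial 95% intervals, and carry the error of counting alone, without any spread between mice. Among the 9 epithelial classes with over 100 cells, crypt goblet cells had the highest level in all 3 libraries for 8 of the 10 genes, Xbp1 and Ern2 being the exceptions. Counted as UMIs per cell, which adds the larger RNA content of dividing and Paneth cells, crypt goblet cells were highest in every library for 3 genes, Creb3l4, Fkbp11 and Pdia5. Tuft cells were left out of this order because they number 28.

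**Figure D1:**
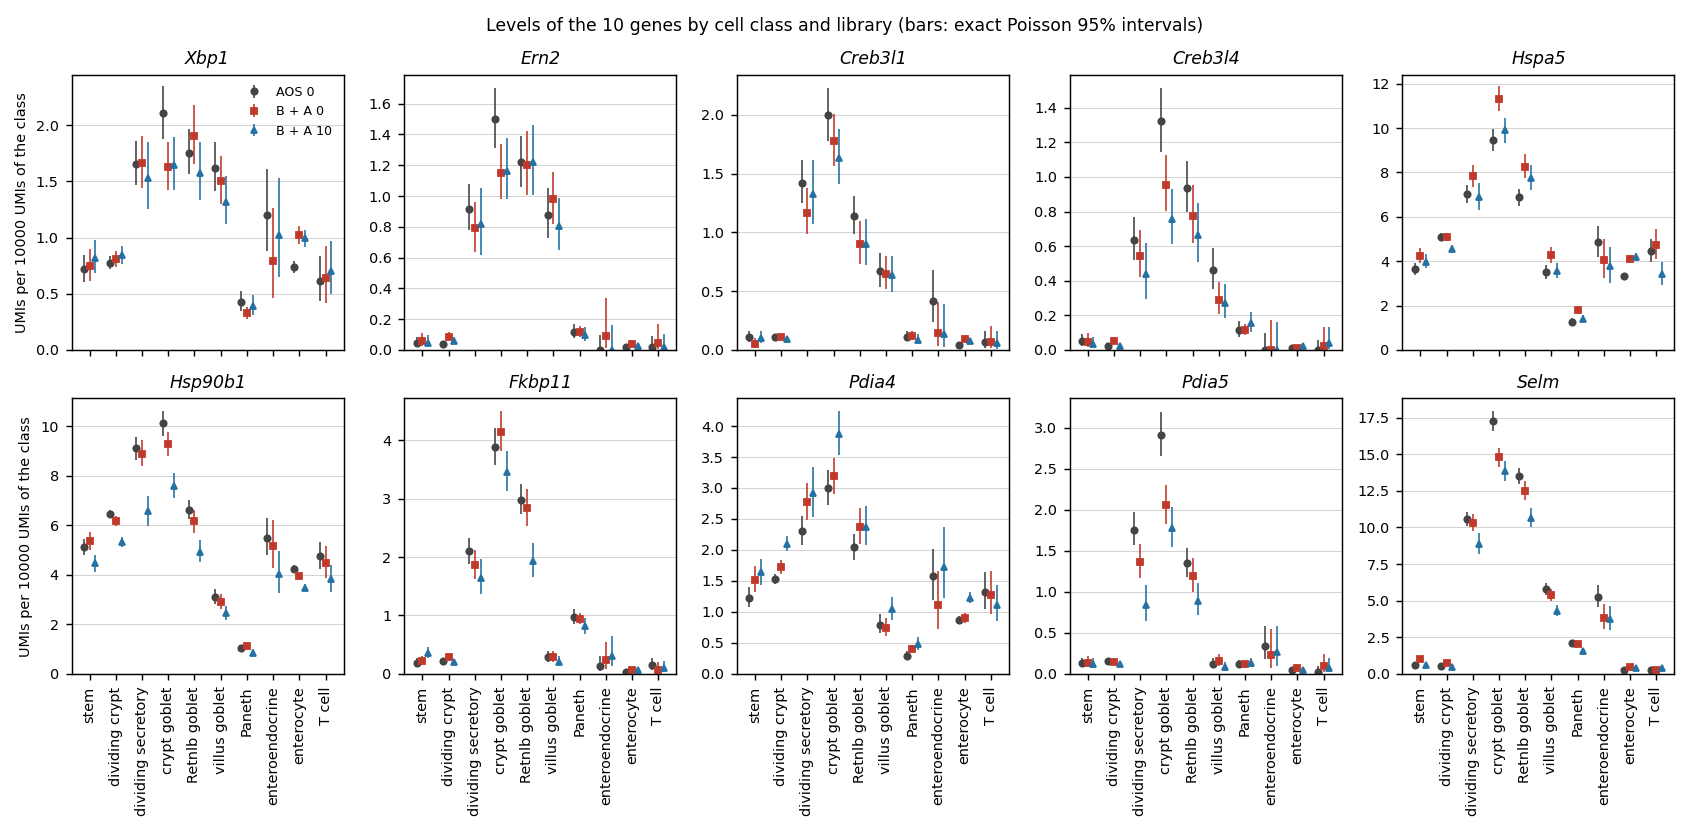
Level of each of the 10 genes (y axis, UMIs per 10000 UMIs of the class, linear) in 10 cell classes (x axis) of the 3 libraries, with points for single libraries and bars for exact Poisson 95% intervals. Crypt goblet cells stand highest for 8 genes, while Xbp1 is spread over all goblet classes and Hspa5 and Hsp90b1 are present in every class.

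Xbp1, the transcription factor made active by IRE1 splicing, was present in every class. Its level was 2.11, 1.63 and 1.65 in crypt goblet cells, 1.76, 1.90 and 1.58 in Retnlb goblet cells, and 1.62, 1.5 and 1.32 in villus goblet cells. The ranges of crypt and Retnlb goblet cells overlapped across libraries, and the crypt interval lay above the villus interval in AOS 0 only. Enterocytes held 0.738, 1.02 and 0.993 and stem cells 0.718, 0.743 and 0.822, so that the crypt goblet level was 1.59 to 2.85 times that of enterocytes. Paneth cells had the lowest level of the 9 epithelial classes at 0.428, 0.325 and 0.392, an order that did not hold on other scales. The reads do not separate spliced from unspliced Xbp1 mRNA.

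Ern2, which encodes IRE1 beta, was mainly a gene of the goblet lineage. The crypt goblet level was 1.5, 1.15 and 1.16, and villus goblet cells held 0.877, 0.978 and 0.807. Enterocytes had 0.0157, 0.0370 and 0.0258, from 15, 23 and 17 UMIs, and crypt goblet cells therefore stood 95.3-, 31.0- and 45.2-fold above them. The lowest of these folds, in B + A 0, had an interval of 20 to 50.2. In enteroendocrine cells, another secretory type, Ern2 was at 0 in AOS 0 and B + A 10 and came from 2 UMIs in B + A 0. Paneth cells showed Ern2 at least 2-fold above enterocytes in each library. The 12 goblet marker genes summed to 313, 347 and 344 in Paneth cells and to 42.3, 96.6 and 95.4 in enterocytes. Their part in the Paneth Ern2 level was not tested. With ribosomal, defensin and cargo genes left out of the total, the Paneth levels of Ern2 were 0.683, 0.518 and 0.487. Those of enterocytes were 0.0170, 0.0407 and 0.0282.

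Creb3l1 encodes a transcription factor known for its part in secretory capacity. It was found at 1.99, 1.77 and 1.63 in crypt goblet cells, 1.42, 1.17 and 1.32 in dividing secretory cells and 0.669, 0.644 and 0.633 in villus goblet cells. The crypt values lay above the villus values with intervals apart in each library. Enterocytes had 0.0398, 0.0902 and 0.0743, which gave crypt goblet folds of 50.1, 19.7 and 21.9. Enteroendocrine cells of AOS 0 held 0.419 from 16 UMIs, against 3 UMIs in each of the other libraries.

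Creb3l4, its relative, had its highest levels in crypt goblet cells, at 1.32, 0.953 and 0.757. Retnlb goblet cells followed with 0.935, 0.772 and 0.662, with intervals that overlapped those of crypt goblet cells in the busulfan libraries. Enterocytes held 0.0105, 0.0113 and 0.0197, and the crypt goblet folds over them were 126, 84.5 and 38.4. No Creb3l4 UMI was found in the enteroendocrine cells of any library, where 3 UMIs, taken as the limit that a count of 0 allows, would be a level of 0.0786, 0.140 and 0.133.

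Hspa5, which encodes the main ER chaperone BiP, was high in every class. Crypt goblet cells held 9.45, 11.3 and 9.89, dividing secretory cells 7.0, 7.84 and 6.91, and enterocytes 3.34, 4.10 and 4.19. The crypt goblet level was thus 2.83, 2.76 and 2.36 times that of enterocytes, with a narrowest interval of 2.66 to 3.01 in AOS 0. Villus goblet cells, at 3.51, 4.28 and 3.58, stood at 1.05, 1.05 and 0.853 times the enterocyte level, and stem cells held 3.66, 4.24 and 3.98.

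Hsp90b1, the ER form of the chaperone HSP90, followed the same order in crypt goblet, dividing secretory and enterocyte cells, with smaller crypt goblet folds over enterocytes. Its levels were 10.1, 9.27 and 7.59 in crypt goblet cells, 9.10, 8.90 and 6.57 in dividing secretory cells and 4.25, 3.95 and 3.48 in enterocytes. Villus goblet cells held 3.12, 2.91 and 2.45, below enterocytes in each library by ratios of 0.735, 0.736 and 0.704. Dividing crypt cells reached 6.46, 6.18 and 5.31, the highest level among the classes with over 100 cells outside goblet and dividing secretory cells.

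Fkbp11 encodes a prolyl isomerase of secretory tissues. Crypt goblet cells held 3.88, 4.15 and 3.46, dividing secretory cells 2.10, 1.86 and 1.65, and Paneth cells 0.980, 0.943 and 0.810. Villus goblet cells fell far below, at 0.282, 0.289 and 0.200, and enterocytes held 0.0367, 0.0644 and 0.0606. The crypt goblet folds over enterocytes were 106, 64.4 and 57.1, and the Paneth folds 26.7, 14.6 and 13.4. Fkbp11 was also the only member at least 2-fold above enterocytes in the stem cells of each library, with stem levels of 0.191, 0.211 and 0.355 and folds of 5.20, 3.28 and 5.86. T cells, which should lack a secretory program of this kind, had 0.145, 0.0709 and 0.0927 from 9, 3 and 5 UMIs.

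The disulfide isomerases differed from each other in range. Pdia4 was at 3.00, 3.19 and 3.88 in crypt goblet cells, 0.864, 0.895 and 1.23 in enterocytes and 1.23, 1.52 and 1.64 in stem cells, a crypt goblet fold over enterocytes of 3.16 to 3.56. Pdia5 was at 2.92, 2.06 and 1.78 in crypt goblet cells and at 0.0503, 0.0709 and 0.0485 in enterocytes, a fold of 29.1 to 58. In villus goblet cells Pdia5 fell to 0.119, 0.156 and 0.0781, from 16, 21 and 9 UMIs. Its levels in Paneth cells (0.115, 0.120 and 0.127) were as low on this scale. With ribosomal, defensin and cargo genes left out of the total, Paneth cells held more Pdia5 (0.683, 0.540 and 0.649) than villus goblet cells (0.267, 0.351 and 0.177).

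Selm encodes selenoprotein M, a small ER protein with a thioredoxin-like fold. It reached 17.3, 14.8 and 13.8 in crypt goblet cells, 13.5, 12.5 and 10.7 in Retnlb goblet cells, 10.6, 10.3 and 8.89 in dividing secretory cells and 5.78, 5.36 and 4.32 in villus goblet cells. Intervals of successive classes in this order did not overlap within a library. In the 28 tuft cells, described at the end, Selm lay above the crypt goblet level in AOS 0 and B + A 0 and below it in B + A 10. In both busulfan libraries the tuft interval held the crypt goblet level. Enteroendocrine cells held 5.26, 3.82 and 3.77, close to the villus goblet level, against 0.592, 0.989 and 0.605 in stem cells and 0.247, 0.448 and 0.370 in enterocytes. Selm and Fkbp11 were the members at least 2-fold above enterocytes in all 6 secretory classes, and the Selm folds were 69.8, 33.0 and 37.4 in crypt goblet, 21.3, 8.53 and 10.2 in enteroendocrine and 8.59, 4.50 and 4.12 in Paneth cells.

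Counted over the list, 9 of the 10 genes were at least 2-fold above enterocytes in crypt goblet cells of each library, all but Xbp1, where 11.3% of the 9529 genes tested were. In dividing secretory cells 7 of 10 were (19.5% of all genes), the exceptions being Xbp1, Hspa5 and Hsp90b1. Retnlb goblet cells had 6 of 10 (6.41%), and villus goblet cells 5 of 10 (4.62%), namely Ern2, Creb3l1, Creb3l4, Fkbp11 and Selm. Enteroendocrine cells had 3 of the 9 genes tested (13.6%), Fkbp11, Pdia5 and Selm. The count was 1 of 10 in stem cells (24.5%), 3 of 10 in dividing crypt cells (28%) and 0 of 9 in T cells (14.9%), a share near or below that of all genes in each of these 3 classes. By this measure 9 of the genes stood high in crypt goblet cells, while Xbp1, Hspa5, Hsp90b1 and Pdia4 were broadly expressed. The genes were chosen with earlier results of these data known, so the counts are no independent test of the label of a secretory gene set. Against stem cells, crypt goblet cells were at least 2-fold higher for 9 of 10 genes, all but Hsp90b1 (5.51% of all genes). Cargo genes are abundant products of the secretory cells, and where only they are named as left out below, ribosomal and defensin genes were left out too. Most counts over enterocytes were higher when ribosomal, defensin and cargo genes were left out of the total, and so was the share of all genes. They were then 10 of 10 in crypt goblet (20.5%), dividing secretory (28.4%) and Retnlb goblet cells (14.9%), 7 in villus goblet (10.8%), 4 in stem (32.5%) and 4 in dividing crypt cells (35.7%), while the enteroendocrine count stayed at 3 of 9 (16.5%).

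The dividing secretory cells were set beside dividing crypt cells, which share their cell cycle state. Of the 10 genes, 6 were at least 2-fold higher in each library (2.74% of all genes), Ern2, Creb3l1, Creb3l4, Fkbp11, Pdia5 and Selm. For Selm, dividing crypt cells held 0.505, 0.720 and 0.439, and the folds were 20.9, 14.3 and 20.2. Creb3l1 was at 0.111, 0.107 and 0.0897 in dividing crypt cells, with folds of 12.8, 11 and 14.7. Hspa5 (1.37 to 1.54) and Hsp90b1 (1.24 to 1.44) differed less. No member differed by 2-fold in each library between dividing secretory and crypt goblet cells in either direction, where 7.21% of all genes were higher and 0.278% lower. With the cells of the top doublet scores left out, the dividing secretory folds over enterocytes were 25.8 to 49.4 for Selm and 29.4 to 63.0 for Fkbp11, against 23.1 to 42.8 and 27.1 to 57.2 with them.

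Villus goblet cells, the mature form on the villus, had less of most members than crypt goblet cells. Of the 10 genes, 8 were at least 2-fold lower in each library, all but Xbp1 and Ern2, where 22% of the 7062 genes tested were and the median log2 ratio of all genes was -0.55. With cells classed by marker scores the count was 4 (7.31% of all genes), Fkbp11, Pdia4, Pdia5 and Selm. Pdia5 had the lowest ratios, 0.0408, 0.0755 and 0.0439, and Fkbp11 followed with 0.0727, 0.0697 and 0.0577. Both stood apart from Pdia4 (0.232 to 0.269), Hsp90b1 (0.309 to 0.322), Creb3l4 (0.303 to 0.355), Selm (0.313 to 0.363), Creb3l1 (0.335 to 0.389) and Hspa5 (0.361 to 0.378). The ratio of Xbp1 was 0.769, 0.924 and 0.801 and that of Ern2 0.585, 0.852 and 0.693. Muc2, the main gut mucin, went the other way, with levels of 51.3, 42.8 and 44.7 in crypt goblet and 167, 146 and 146 in villus goblet cells.

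These ratios depend on what the UMIs of a class are spent on. Tff3 and Zg16, products of goblet cells, took 40.9% to 41.5% of the villus goblet UMIs and 8.42% to 9.10% of those of crypt goblet cells, and alpha-defensins took 61.4% to 67.1% of the Paneth UMIs. With ribosomal, defensin and cargo genes left out of the total, 6 members remained at least 2-fold lower in villus goblet cells (11.9% of all genes), Creb3l4, Hsp90b1, Fkbp11, Pdia4, Pdia5 and Selm. Fkbp11 (0.0760 to 0.103) and Pdia5 (0.0575 to 0.101) kept the lowest ratios, while Xbp1 turned to 1.06 to 1.24. As UMIs per cell, all 8 were at least 2-fold lower (30.7%), Fkbp11 with 0.0474 to 0.0592 and Pdia5 with 0.0332 to 0.0617.

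In Paneth cells the direction of several members rested on this choice. Per 10000 UMIs, Ern2, Creb3l4, Fkbp11 and Selm were at least 2-fold above enterocytes (4 of 10, 2.66% of all genes) and Hspa5, Hsp90b1 and Pdia4 at least 2-fold below (3 of 10, 65.7% of all genes). The Paneth levels behind the latter were 1.28, 1.80 and 1.41 for Hspa5. They were 1.02, 1.12 and 0.853 for Hsp90b1 and 0.287, 0.404 and 0.477 for Pdia4. With the cargo genes left out, no member was 2-fold below (4.82%) and 6 were above (19.5%), Ern2, Creb3l1, Creb3l4, Fkbp11, Pdia5 and Selm. Hspa5 then turned to 1.57 to 2.10, Hsp90b1 to 1.14 to 1.33 and Pdia4 to 1.81 to 1.85 times the enterocyte level. Xbp1, at 0.319 to 0.580 times the enterocyte level per 10000 UMIs, turned to 1.31 to 3.19 without the cargo genes and 1.42 to 2.27 per cell. As UMIs per cell the same 6 were above (15.7%), and Hspa5 stood at 1.41 to 1.96, Pdia4 at 1.30 to 2.01 and Hsp90b1 at 0.945 to 1.26. Fkbp11 was above on each scale, by 13.4 to 26.7, 60.1 to 147 and 55.7 to 105 times. Goblet markers were also higher in Paneth cells than in enterocytes (given with Ern2), and their part in these values was not tested.

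Against crypt goblet cells all 10 members were at least 2-fold lower in Paneth cells per 10000 UMIs, where 57.6% of all genes were. Without the cargo genes 6 were (2.4%), Ern2, Creb3l1, Hsp90b1, Pdia4, Pdia5 and Selm, and Fkbp11 then stood at 0.609 to 0.944 of the crypt goblet level. Per cell, the count was 5 (1.54%), and Fkbp11 was at 0.773 to 0.848. Pdia5 was the lowest without the cargo genes, at 0.147 to 0.213, together with Creb3l1 at 0.155 to 0.207.

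**Figure D2:**
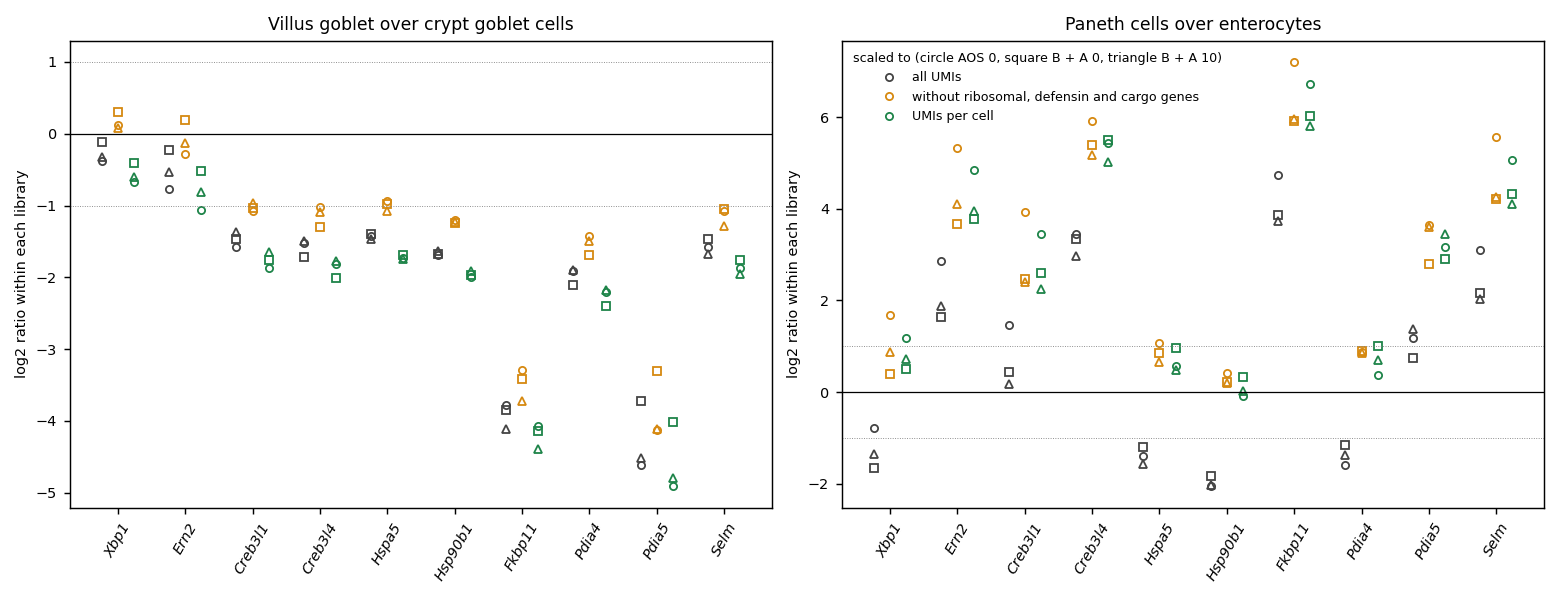
Log2 ratios of the 10 genes for villus goblet over crypt goblet cells (left) and Paneth cells over enterocytes (right), each symbol being 1 library and each colour 1 way of scaling, with dotted lines at 2-fold. Fkbp11 and Pdia5 stand lowest on the left on every scale. Hspa5, Hsp90b1 and Pdia4 cross from below to near or above 0 on the right when ribosomal, defensin and cargo genes are left out.

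Shares of cells with at least 1 UMI were compared after each cell was thinned to 1000 UMIs, with T cells as the type that should lack the program. Selm was found in 74.2% of crypt goblet, 40.3% of villus goblet, 37.7% of enteroendocrine and 17.4% of Paneth cells, against 3.01% of enterocytes and 3.80% of T cells. The enterocyte share did not exceed that of T cells. The T cells carried enterocyte markers at a summed level of 271 to 318, against 656 to 700 in enterocytes, and are thus no clean background for that type. Fkbp11 was in 29.8% of crypt goblet, 9.76% of Paneth and 1.82% of villus goblet cells, beside 0.949% (0.196% to 2.75%) of T cells, and the interval of the villus goblet share (0.996% to 3.03%) overlapped that of T cells, although the villus goblet level was above the T cell level in each library. Pdia5 was in 18.9% of crypt goblet cells and in 0.389% of villus goblet and 0.633% of T cells. Without thinning, the crypt goblet shares were 99.3% for Selm, 80.5% for Fkbp11 and 67.0% for Pdia5, and those of T cells 13%, 5.06% and 2.22%, at median depths of 5775 and 4185.5 UMIs. At least 5 of the 10 genes were detected together in 20.4% of thinned crypt goblet cells, 10.7% of dividing secretory, 7.29% of Retnlb goblet and 0.519% of villus goblet cells, and in 0 of 379 Paneth cells, which allows a share of up to 0.792% with 5 genes detected at that depth. Ribosomal, defensin and cargo genes took 77.8% to 83.2% of Paneth UMIs, so that few of the 1000 were left for other genes and the count says little about expression.

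The remaining 87 genes of the pathway were counted in 6 lists. In crypt goblet cells against enterocytes, where 11.3% of all genes were at least 2-fold higher and 21.2% lower in each library, 9 of 14 tested ER chaperones were at least 2-fold higher in each library, with a median log2 ratio of 1.35 against -0.27 for all genes, and 16 of 25 genes of translocation, signal peptide cleavage and N-glycosylation were higher with a median of 1.20. Of 13 disulfide enzymes 7 were higher (median 1.57). They were led by Agr2, an isomerase that goblet cells need for mucin, at 79.9 to 238 times the enterocyte level. Agr2 is also on the list of goblet markers, but as a pathway gene it was left out of the clustering and the naming. ER-associated degradation had 2 of 13 genes higher, Herpud1 and Edem2. The other sensors and relatives of ATF6 had 0 of 8 higher and 1 lower, Creb3l3. The PERK, ATF4 and CHOP branch had 3 of 9 higher (Ppp1r15a, Asns and Ddit4) and 2 lower (Atf3 and Cebpb), with a median of -0.13.

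The same lists were lower in villus than in crypt goblet cells where they had been high in the crypt. At least 2-fold lower in each library, as were 22% of all genes, were 19 of 25 genes of translocation and glycosylation (median log2 ratio -1.37), 9 of 14 chaperones (-1.32) and 6 of 12 disulfide enzymes (-1.36), beside -0.55 for all genes. The counts were 2 of 13 for degradation, 2 of 8 for sensors and 2 of 7 for the PERK branch, with medians of -0.52, -0.52 and -0.20. None of the 6 lists had a gene at least 2-fold higher in villus goblet cells in each library.

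**Figure D3:**
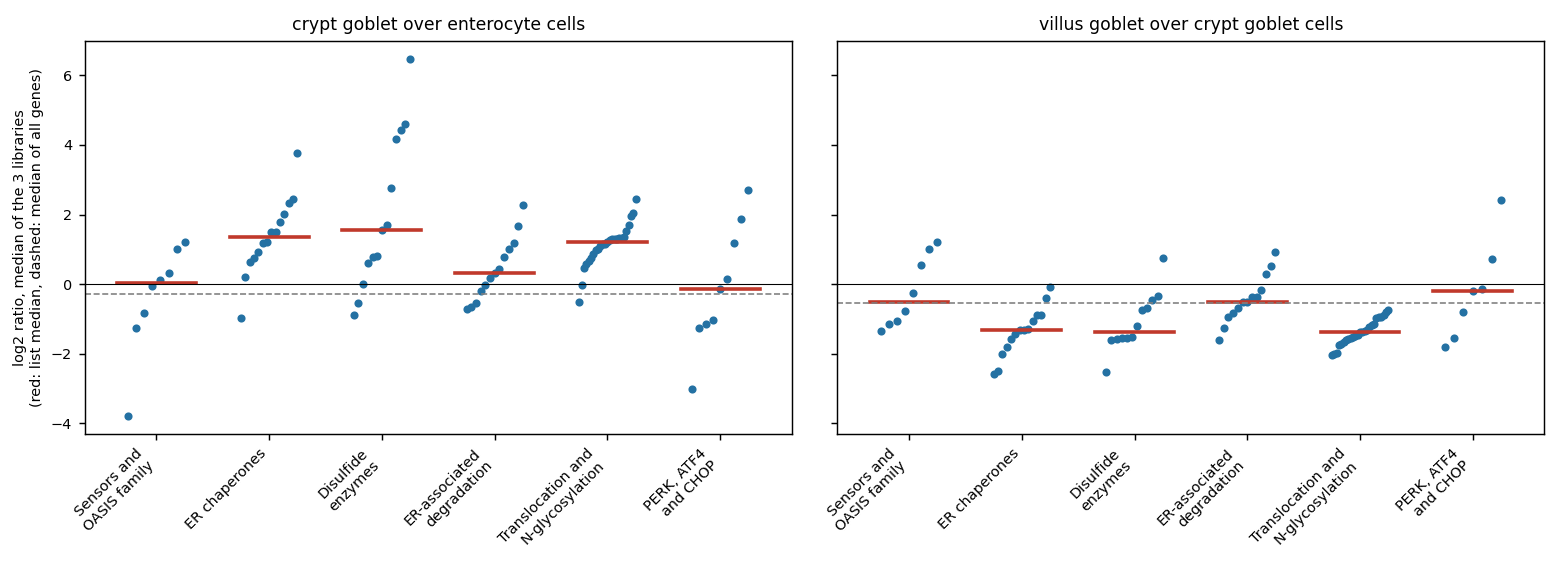
Log2 ratio of each tested gene of the 6 pathway lists (x axis), taken as the median of the 3 libraries, for crypt goblet over enterocyte cells (left) and villus over crypt goblet cells (right); red bars are list medians and the dashed line the median of all genes tested. Chaperones, disulfide enzymes and translocation genes stand above the dashed line on the left and below it on the right, while sensors, degradation and the PERK branch lie near it on the right.

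Genes with the pattern most like each member were ranked by Pearson's r of log levels over 31 pools of class and library among 9286 genes, a description in which pools share libraries and classes. Hspa5 was closest to Dad1 (r = 0.965), a subunit of the N-glycosylation enzyme, and 16 of its nearest 25 genes were on the pathway lists. Pdia4 was closest to Sec61g (0.965), of the translocation channel, with 13 of 25, and Hsp90b1 to Fkbp2 (0.969) with 6 of 25. Ern2 and Creb3l4 shared their closest gene, Slc12a8 (0.982 and 0.95), and were the member pair most alike (0.966). Creb3l1 was closest to the ER chaperone gene Dnajc10 (0.963), Pdia5 to C2cd4a (0.971), Selm to Rab3d (0.971), a small GTPase of secretory granules, and Xbp1 to Tm9sf3 (0.960). Fkbp11 was closest to Ccl9 (0.937) and Reg4 (0.928), which were markers used to name the crypt goblet cells. The least alike pair was Fkbp11 and Hsp90b1 (0.24).

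The libraries were compared within each class, as ratios of levels with exact binomial intervals, calling a gene when the ratio was past 1.5-fold and its interval left out 1. These ratios compare single libraries, and the 3 contrasts share them. Over the whole libraries, the 5 secretory classes held 20.4%, 27.4% and 21.0% of cells, so levels over all cells mix content with makeup, and only the class values are compared here.

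In crypt goblet cells no member was called in B + A 0 against AOS 0, where 2.38% of all genes were called higher and 3.61% lower. By the interval alone, 6 members were lower (11.4% of all genes), Xbp1, Ern2, Creb3l4, Hsp90b1, Pdia5 and Selm. Only Hspa5 was higher (4.73%). The median log2 ratio was -0.20 for the members and -0.099 for all genes. Hspa5 had a ratio of 1.20 (1.11 to 1.29) and Pdia5 of 0.706 (0.608 to 0.820). In B + A 10 against AOS 0, Creb3l4 (0.573, 0.442 to 0.738) and Pdia5 (0.610, 0.516 to 0.720) were called lower, 2 of 10 members beside 7.01% of all genes. Of all genes, 4.38% were called higher. By the interval alone, 7 members were lower (17.4% of all genes), those 2 with Xbp1, Ern2, Creb3l1, Hsp90b1 and Selm. Only Pdia4 was higher (7.44%). The median log2 ratio was -0.34 for the members and -0.12 for all genes. Over the alternative ways of processing, the Creb3l4 ratio ran from 0.514 to 0.755 and was not past 1.5-fold with cells classed by marker scores, and the Pdia5 ratio ran from 0.604 to 0.707 and was not past it at resolution 0.4, without joining or thinned. The crypt goblet levels behind them, given above, decreased from AOS 0 through B + A 0 to B + A 10. The summed level of Reg4 and Ccl9, the markers of these cells, went the same way, at 46.7, 34.3 and 28.3 in crypt goblet and 23, 18.6 and 12.9 in dividing secretory cells, and its part in the ratios was not tested. The contrast of B + A 10 with B + A 0 had no call in crypt goblet cells (2.49% of all genes higher and 1.82% lower), with Pdia4 at 1.22 (1.07 to 1.39) and Fkbp11 at 0.835 (0.735 to 0.948). By the interval alone, 4 members were lower there (7.74% of all genes), and Pdia4 was higher (5.78%).

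Dividing secretory cells gave a single called member, Pdia5, at 1.76, 1.36 and 0.844. Its ratio was 0.479 (0.357 to 0.635) for B + A 10 against AOS 0 (7.3% of all genes lower) and 0.618 (0.452 to 0.835) against B + A 0 (2.87%), and 0.775 (0.637 to 0.941) for B + A 0 against AOS 0. The first of these ranged from 0.448 to 0.585 over the alternatives and was called in each, and the second was 0.780 (0.575 to 1.05) with libraries clustered without joining. In villus goblet cells Creb3l4, at 0.461, 0.289 and 0.269, was called lower in B + A 0 (0.627, 0.409 to 0.951) and in B + A 10 (0.584, 0.367 to 0.913) against AOS 0, beside 3.67% and 3.85% of all genes. Creb3l4 was thus called lower in B + A 10 than in AOS 0 in both crypt and villus goblet cells, although the crypt goblet ratio was not past 1.5-fold with marker scores. Retnlb goblet cells of B + A 10 had less Fkbp11 (0.649, 0.545 to 0.769) and Pdia5 (0.662, 0.511 to 0.852) than those of AOS 0, 2 of 10 members beside 5.65% of all genes. Neither was past 1.5-fold without the cargo genes (0.695 for Fkbp11 and 0.710 for Pdia5) or with marker scores (0.828 and 0.736). In Paneth cells Pdia4, from 65, 169 and 90 UMIs, was called higher in B + A 10 against AOS 0 (1.66, 1.19 to 2.32), beside 13.7% of all genes, and it was not past 1.5-fold without the cargo genes (1.42, 1.02 to 1.99), at resolution 1.5 (1.40, 1.06 to 1.84) or with marker scores (1.47, 1.20 to 1.80).

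Enterocytes of B + A 0 had more Creb3l1, Fkbp11 and Selm than those of AOS 0, 3 of the 8 members tested beside 2.5% of all genes. The ratios were 2.27 (1.47 to 3.52) for Creb3l1, 1.76 (1.09 to 2.85) for Fkbp11 and 1.81 (1.52 to 2.16) for Selm. Over the alternatives the Selm ratio ran from 1.57 to 1.86 and that of Fkbp11 from 1.34 (0.846 to 2.12), with marker scores, to 1.85. Creb3l1 (1.87) and Fkbp11 (1.65) were also called in B + A 10 against AOS 0 (4.98% of all genes), and Selm was at 1.5. The summed level of the 12 goblet marker genes in the same enterocytes was 42.3, 96.6 and 95.4, and that of the 14 Paneth markers 25.5, 59.3 and 44.2, so that marker levels of other cell types were higher where these ratios were above 1. Their part in the ratios was not tested. Xbp1, which enterocytes themselves hold, had a ratio to AOS 0 of 1.38 (1.24 to 1.54) in B + A 0 and of 1.34 (1.21 to 1.5) in B + A 10.

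Stem cells of B + A 0 held more Selm than those of AOS 0 (1.67, 1.30 to 2.15, 2.3% of all genes), and those of B + A 10 less than B + A 0 (0.612, 0.466 to 0.80, 2.38%). Goblet markers summed to 30.9, 66.4 and 77.7 in stem cells and to 31.1, 77.4 and 93.3 in T cells, and their part was not tested. Dividing crypt cells of B + A 10 also held less Selm than those of B + A 0 (0.610, 0.518 to 0.718, 1.69%), and those of B + A 0 more Ern2 than AOS 0 (2.23, 1.42 to 3.55, 2.62%), from 49 against 35 UMIs. Goblet markers in dividing crypt cells stood in the same order, at 50.3, 93 and 68, and their part was not tested. The Selm ratio in dividing crypt cells was 0.798 without joining and 0.716 with pathway genes kept in the clustering, neither past 1.5-fold. Fkbp11 was higher in stem cells of B + A 10 than of AOS 0 (1.86, 1.21 to 2.90, 4.21%) and of B + A 0 (1.68, 1.06 to 2.70, 2.55%), on 38, 31 and 54 UMIs. These stem cell ratios depended on how the cells were classed. Selm of B + A 10 against B + A 0 turned from -0.71 to 0.34 on the log2 scale without joining, and Fkbp11 for the same pair from 0.75 to -0.28 with marker scores.

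Small ratios of several members ran the same way through the 9 epithelial classes. Hsp90b1 was lower in B + A 10 than in AOS 0 in all 9, with ratios of 0.722 to 0.869 and an interval that left out 1 in 8 of them, where 10.9% of the 1399 genes tested in every class were lower in all. Against B + A 0 its ratios were 0.738 to 0.879, again below 1 in all 9 classes, as were those of Selm, at 0.610 to 0.987 (14.9% of all genes). T cells had the same order for Hsp90b1, with levels of 4.74, 4.47 and 3.82. Pdia4 was higher in B + A 10 than in AOS 0 in all 9 classes, by 1.10 to 1.66, with 7 intervals that left out 1 (11.9% of all genes), and higher than in B + A 0 in all 9 (4.76%). Its T cell levels, 1.32, 1.28 and 1.11, did not follow that order. Of the 5 members tested in all 9 classes for B + A 0 against AOS 0, none was on 1 side of 1 in all, where 7.13% of all genes were higher and 1.75% lower. Hspa5 ratios for that pair ran from 0.836 (0.641 to 1.08) in enteroendocrine to 1.41 (1.23 to 1.62) in Paneth cells, the latter being 1.07 (0.933 to 1.23) without the cargo genes. Without the cargo genes the ratios of Hsp90b1, Selm and Pdia4 named here stayed on the same side of 1 in all 9 classes. Without joining, Hsp90b1 of B + A 10 against AOS 0 was above 1 in Paneth (1.03) and stem cells (1.10). B + A 10 had the lowest median depth of the libraries. With all cells thinned to 1000 UMIs, the ratio of B + A 10 to AOS 0 was still below 1 for Hsp90b1 in 8 of 8 classes and above 1 for Pdia4 in 5 of 7.

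**Figure D4:**
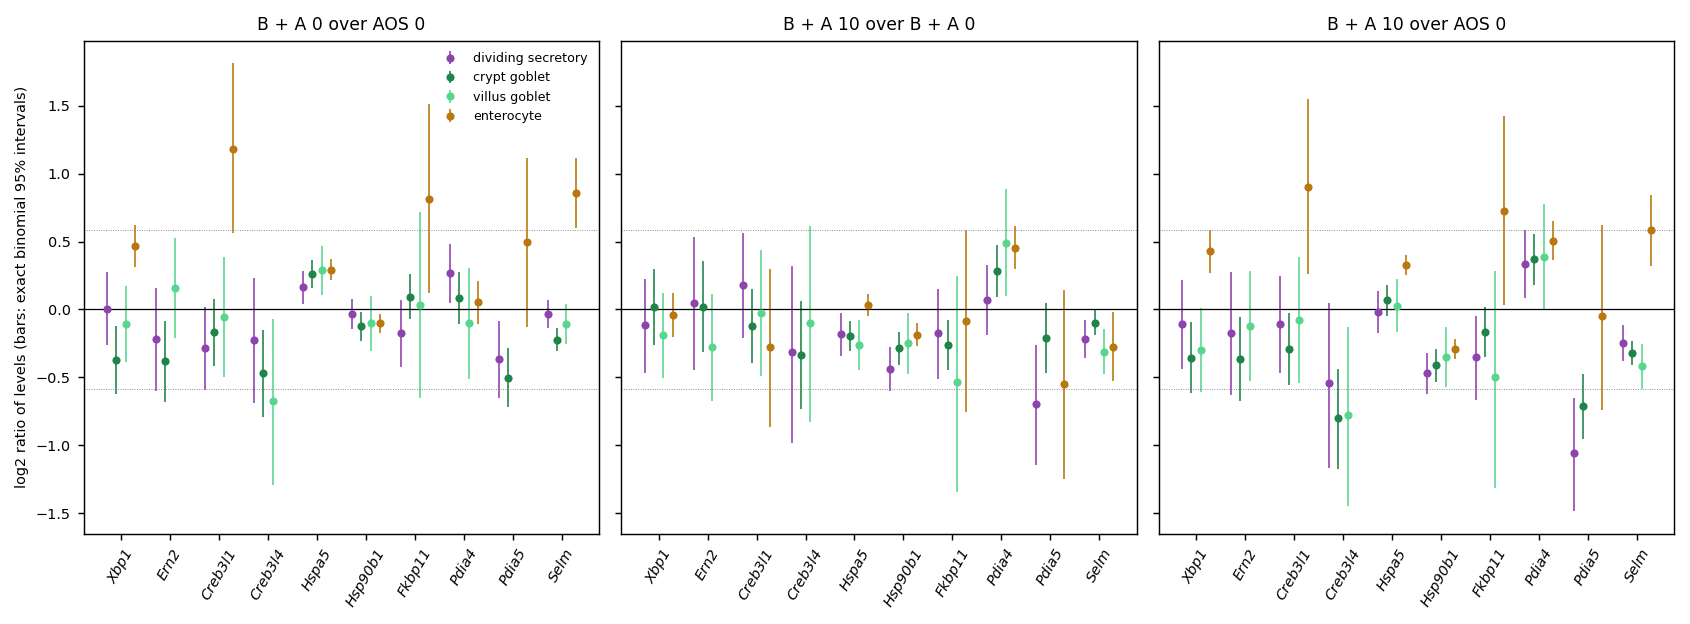
Log2 ratio of levels between libraries (y axis) for the 10 genes in 4 classes, 1 panel per pair of libraries, with exact binomial 95% intervals as bars and dotted lines at 1.5-fold; genes under 50 UMIs in the pair are not drawn. Most points lie inside the dotted lines, Pdia5 and Creb3l4 fall below on the right, and the enterocyte values of Creb3l1, Fkbp11 and Selm lie above 0 on the left.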

How the data were processed

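The deposited table, per the file headers and its values, held natural log values, ln(1 + UMIs per 10000), which the authors made with Cell Ranger 2.2.0 on mm10 (versions from the submitters' processing notes), from 10x 3′ libraries with 5000 cells forced per library (although 1 library holds 5352), cells under 200 genes and genes in under 3 cells removed. Whole UMIs were recovered from the steps of each cell (100% of values above 0 whole within 0.01 UMI). Cells were joined and clustered with Seurat 5.3.0 (2000 variable genes, 20 dimensions, resolution 0.8, the 97 pathway genes left out), giving 20 clusters, 4 of them unnamed, and doublets were scored with scrublet in scanpy 1.11.5, whose automatic threshold marked 15 cells. The whole rule that named the classes, its enterocyte score limit of 0.45 included, was set after clusters were seen. UMIs were summed per class and library. Genes needed 50 UMIs in the pair of pools. Calls needed 2-fold in each library (classes) or 1.5-fold with the interval leaving out 1 (libraries). Scripts were tested on simulated data. Named genes are the 10 members, the 6 pathway lists and the genes most alike by r. Members and lists were chosen with earlier results of these data known. Promoters came from RefSeq (GRCm38.p6). Alternatives covered clustering, joining, doublets, cells under 500 genes, scaling, thinning, marker scores and a minimum of 200 UMIs, and UMIs per cell, added after seeing the data.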

Additional observations from a re-analysis of the deposited data

Results flagged for a closer look

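The classes were searched for ratios that went opposite ways, with Retnlb goblet, dividing crypt, tuft and T cells left out. In 4 cases a member's ratio between libraries was past 1.5-fold in a class and on the other side of 1 in another. Both intervals left out 1, and the difference between the classes was not tested. Smaller opposite ratios, such as those of Xbp1 in enterocytes and crypt goblet cells against AOS 0, were not counted. Fkbp11 in B + A 10 against AOS 0 was 1.86 in stem cells (1.21 to 2.90) and 0.784 in dividing secretory cells (0.631 to 0.969). Fkbp11 in B + A 10 against B + A 0 was 1.68 in stem cells (1.06 to 2.70) and 0.835 in crypt goblet cells (0.735 to 0.948). Creb3l1 in B + A 10 against AOS 0 was 1.87 in enterocytes (1.20 to 2.93) and 0.818 in crypt goblet cells (0.680 to 0.981). Selm in B + A 0 against AOS 0 was 1.81 in enterocytes (1.52 to 2.16) and 0.726 in enteroendocrine cells (0.554 to 0.942). In stem cells and enterocytes these members came from few UMIs per cell, beside goblet marker levels that were also higher in the busulfan libraries, and the part of that RNA was not tested.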

How the results depend on the processing

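No paired analysis was possible because each group had 1 library. Of the summary values recomputed, 360 stayed within 1.5 times of the count or within the counting interval and 32 moved further. The changes below came from fewer genes tested (a minimum of 200 UMIs), from the total divided by, or from fewer UMIs (thinning, against full depth). The total changed with UMIs per cell, or with ribosomal, defensin and cargo genes left out, written below as without cargo genes. For the other alternatives the cause was not tested.

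Genes at least 2-fold above enterocytes in stem cells went from 1 to 2 at resolutions 0.4 and 1.5, as a mean over cells and as UMIs per cell. They went to 4 without ribosomal, defensin and cargo genes and to 5 by marker scores. Ribosomal genes took 28.0% to 29.6% of the stem cell UMIs, and cargo genes 0.368% to 0.823%. In dividing crypt cells 3 became 1 without joining or with pathway genes kept in the clustering, and 7 per cell. In Retnlb goblet cells, a class not found at resolution 0.4 or without joining, 6 became 10 without cargo genes. A minimum of 200 UMIs took Paneth cells from 4 to 2 and enteroendocrine cells from 3 to 1. Genes lower in Paneth cells than in enterocytes went from 3 to 0 without cargo genes, per cell and by marker scores, and those lower than in crypt goblet cells from 10 to 6 without cargo genes and 5 per cell. By marker scores, 4 genes in place of 8 were lower in villus than in crypt goblet cells. Crypt goblet cells led for 3 genes per cell in place of 8, and had the highest share of cells for 2 at full depth in place of 5 when thinned. In Paneth cells against enterocytes, the median log2 ratios of Hspa5, Hsp90b1 and Pdia4 reversed from -1.39, -2.03 and -1.37 to 0.85, 0.22 and 0.87 without cargo genes and to 0.58, 0.033 and 0.70 per cell, and Xbp1 turned as well, from ratios of 0.319 to 0.580 to 1.31 to 3.19 and 1.42 to 2.27.

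Between libraries, the member and class pairs past 1.5-fold in 7 classes were 5 for B + A 0 against AOS 0, and 2 with a minimum of 200 UMIs or thinned. For B + A 10 against B + A 0 they were 3, then 0 without joining, and 1 as a mean over cells, with pathway genes kept or thinned. For B + A 10 against AOS 0 they were 8, then 5 by marker scores, 3 with 200 UMIs and 4 thinned. Median member log2 ratios for B + A 0 against AOS 0 moved by marker scores from -0.20 to 0.011 in crypt goblet and from -0.46 to -0.0066 in enteroendocrine cells, and by thinning from -0.10 to 0.25 in dividing secretory cells. In stem cells of B + A 10 against B + A 0, Selm reversed from -0.71 to 0.34 without joining and Fkbp11 from 0.75 to -0.28 by marker scores, so that neither direction is firm. The absence of replicate libraries, the pooling of mice and low UMI counts in stem cells and enterocytes limit all ratios between libraries.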

Other observations

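Tuft cells, chemosensory cells of which only 28 were found, held Selm at 24.2 (20 to 29), 18.2 (13.8 to 23.4) and 12.8 (9.46 to 17.0) UMIs per 10000 in AOS 0, in B + A 0 and then in B + A 10, from 118, 59 and 48 UMIs. No Fkbp11 or Creb3l1 UMI was found in tuft cells of any library, while both chaperones were present. Hsp90b1 stood at 6.56, 5.54 and 6.68 and Hspa5 at 3.28, 3.69 and 3.21, with 12 to 32 UMIs per value.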
